A study of Homo sapiens with 118 samples.

Results

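Tacedinaline at its highest concentration was compared with tacedinaline at its lowest concentration in cultures of HepaRG, a human hepatic line established from a tumour. The comparison used the 3 libraries of group C5 (44 µM) and the 3 libraries of group C1 (1.143333 µM), which are 6 of the 118 libraries of the series, and all features of the count table. Tacedinaline, also named CI994, was 1 of 8 histone deacetylase inhibitors given to differentiated HepaRG cells at 5 concentrations. The chemical was renewed daily for 72 h, and lysates were then profiled by TempO-Seq, a targeted method that ligates adjoining probes on each transcript and counts the ligated pairs by sequencing. Every library of both groups was exposed to tacedinaline, so C1 is a low-dose reference and not an untreated one, and a response already complete at 1.143333 µM would not be seen. Solvent-control libraries were not used here. The 3 libraries of each group came from 3 batches of HepaRG cells and are numbered replicates 1 to 3 here, and all tacedinaline libraries lay on plate E. All cells thus stem from 1 line, which the labels call liver progenitor cells and which was thawed in the differentiated state.

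Histone deacetylases remove acetyl groups from the lysines of histones, which closes chromatin at many promoters. The class I enzymes HDAC1, HDAC2 and HDAC3 work inside corepressor complexes such as SIN3, NuRD, CoREST and NCOR/SMRT, and benzamides such as tacedinaline bind the zinc of these enzymes. Hepatocytes secrete most plasma proteins, detoxify drugs with cytochrome P450 and conjugating enzymes, make bile acids, and run the urea cycle, gluconeogenesis and ketogenesis under the control of factors such as HNF4A, FXR (NR1H4), PXR (NR1I2) and CAR (NR1I3).

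Total counts lay between 1243102 and 4656290 in the 15 tacedinaline libraries, the lowest being replicate 1 of C1. The mean total was 2950850 ± 1513000 (SD, n = 3) at C1 and 2110830 ± 394000 at C5, which a two-sided exact permutation test did not separate (p = 0.4, the smallest possible being 0.1). The number of features with at least 5 counts was 12313.67 ± 1233 at C1 and 12214 ± 435 at C5 (exact permutation p = 0.9). The 20 most abundant features held 12.6% ± 1.12 of the counts at C1 and 6.72% ± 0.182 at C5, without overlap between the groups (exact permutation p = 0.1, the smallest possible). Of 22068 features, named by gene symbol and probe number, 12461 passed the filter on low counts and 9607 were not tested. Levels are counts as CPM, scaled to the TMM-adjusted library size, and changes are log2 values of C5 minus C1.

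At 44 µM the hepatocyte programme fell widely, while genes of several other tissues rose from levels near 0. A call needed a p below 0.05 in the edgeR quasi-likelihood test, after Benjamini-Hochberg adjustment, together with a change of 1.5-fold or more. The call was made for 4840 of 12461 features (38.8%), of which 2334 rose (18.7%) and 2506 fell (20.1%). The median change was 1.22 among rising and -1.58 among falling features, against 0.03 over all features tested. Large decreases outnumbered large increases. More than 4-fold changes numbered 469 upward and 940 downward, and more than 16-fold changes 138 upward and 346 downward. In 147 rising features no C1 library had more than 3 counts, and in 222 falling features no C5 library did, so their folds are given only as bounds. The 3 values of C1 and the 3 of C5 did not overlap in 2190 rising and 2402 falling features, against 51.2% of all features tested. The sign of the change was the same in all 3 batches in 2269 rising and 2471 falling features.

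**Figure D1:**
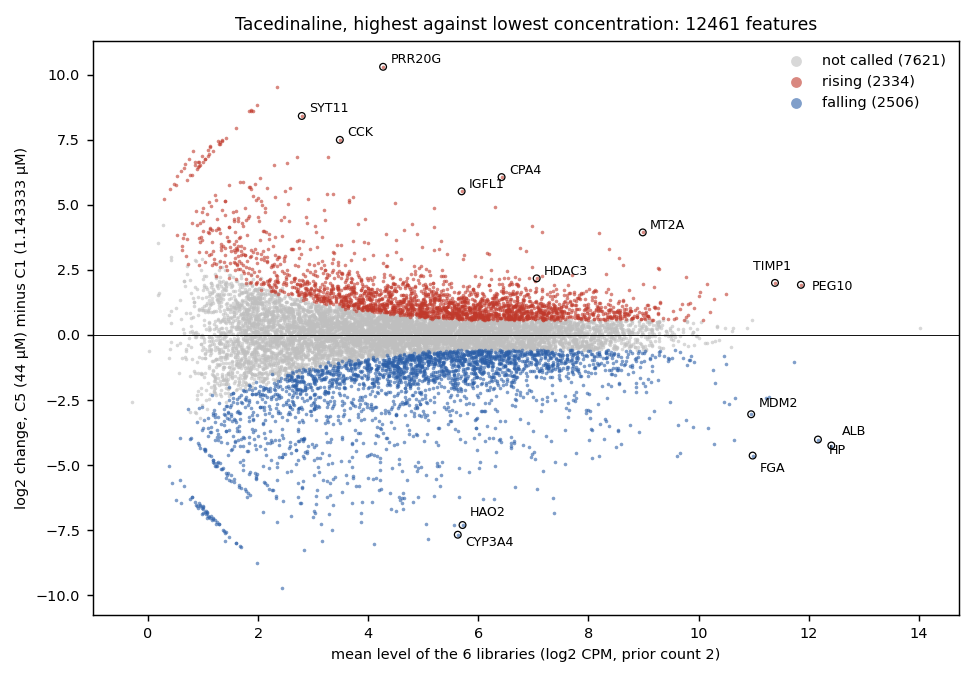
Log2 change from C1 to C5 (vertical axis) against the mean level of the 6 libraries (horizontal axis, log2 CPM with a prior count of 2), with 1 point per tested feature. The 2334 rising features are red, the 2506 falling features are blue, and the plasma protein genes ALB, HP and FGA lie at the lower right, far below the level of no change.

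The falling features carried much of the RNA counted. At C1 they held 42.5%, 41.0% and 39.9% of all CPM in replicates 1, 2 and 3, and at C5 13.1%, 12.9% and 13.2%. The rising features held 12.8%, 12.9% and 13.2% at C1 and 32.8%, 32.9% and 32.7% at C5. These shares differed by less than 3 percentage points between replicates of a group. These percentages are shares of a library, so a fall of abundant transcripts raises the share of the others. The CPM, scaled to the TMM-adjusted library size, are relative levels and not amounts per cell. In lysates of a whole culture fewer cells of a type cannot be told apart from less RNA per cell.

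The labelled cell type was checked against marker lists. All 11 features of the hepatocyte markers (ALB, TTR, APOA1, APOB, SERPINA1, FGB, TF, ASGR1, CYP3A4 and HNF4A) were detected at C1 and all fell, their summed level going from 44790 to 60600 CPM at C1 to between 3404 and 4846 CPM at C5. Of 9 biliary or progenitor features 4 were tested, 3 rose and none fell, with a summed level of 78.9 to 116 CPM at C1 and 116 to 152 CPM at C5. The rising calls of KRT19_3690 and SPP1 were lost without replicate 1 and without replicate 2, and KRT19_10816 did not pass (log2 -0.25). The longer biliary and progenitor list, described below, went both ways, with 9 rising and 8 falling of 21 tested features. KRT7 and EPCAM, markers of biliary epithelium, had a probe that never exceeded 3 counts in either group. Of the 14 stellate or fibroblast features 7 were tested, 1 rose and 3 fell, and the sum was 129 to 181 CPM at C1 and 95.2 to 140 CPM at C5. Of 12 endothelial features 9 were at the floor in both groups, and of 10 macrophage or leukocyte features 8 were, among them PTPRC, CD163 and MARCO. The libraries thus held hepatocyte transcripts at C1 and lacked the main blood and vessel markers, and no other cell type's summed markers rose to the level that the hepatocyte markers lost. The label "liver progenitor cells" goes against these levels, since differentiated hepatocyte markers dominated at C1.

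HDAC3, the catalytic subunit of the NCOR/SMRT complex, had 75.4, 54.6 and 59.9 CPM at C1 and 296, 288 and 257 CPM at C5, and so rose by 2.17 (log2, SE 0.187, edgeR adjusted p = 7.04e-13). HDAC2 rose from 293, 344 and 296 CPM to 639, 603 and 551 CPM (log2 0.94, SE 0.129). In both genes every C5 value lay above every C1 value, while the groups did not overlap in 51.2% of all features tested. HDAC6, a cytoplasmic tubulin deacetylase that benzamides spare, fell in both of its probes, from 718, 675 and 568 CPM to 278, 313 and 272 CPM in HDAC6_90749 (log2 -1.18) and by 1.41 in HDAC6_91641. HDAC9 rose by 1.81 in 1 of its 2 tested probes, from 3.76 ± 0.873 to 13.0 ± 3.05 CPM. HDAC1 (26.1 ± 10.1 against 36.0 ± 4.95 CPM, log2 0.41, SE 0.292, edgeR adjusted p = 0.274) and HDAC8 (log2 -0.10, SE 0.309) did not pass the test. Over the list of zinc-dependent deacetylases, 3 of 14 tested features rose and 2 fell (4 without library C5 replicate 1), and the 35.7% called is near the 38.8% of all features.

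Among subunits of the class I corepressor complexes 14 of 35 tested features rose and 4 fell, with a median of 0.42, against 18.7% rising and 20.1% falling of all features. The SIN3 subunits ING1 (32.0 to 103 CPM, log2 1.67), SAP18 (22.3 to 61.4 CPM, log2 1.45) and SAP30 (32.4 to 86.5 CPM, log2 1.45) rose. The falling members belonged to NuRD. CHD3, its chromatin remodeller, fell from 73.6, 95.0 and 81.8 CPM to 9.26, 20.3 and 10.8 CPM (log2 -2.60, SE 0.285), and MTA1, MTA2 and MTA3 fell as well. Among acetyltransferases and acetyl-lysine readers, 3 of 19 features rose and 1 fell, and the 21.1% called is below the 38.8% of all features. The acetyltransferase KAT2B (PCAF) fell from 140 to 48.7 CPM (log2 -1.52), while the acetyltransferase KAT6A (log2 1.19) and the nuclear receptor coactivator NCOA3 (log2 1.54) rose. Of 7 replication-independent histone features 2 rose, and the 28.6% called is likewise below that share. One of them, the variant histone H2AFV (H2AZ2), went from 47.0, 20.3 and 49.4 CPM to 155, 154 and 128 CPM.

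Transcription factors of the hepatocyte fell in 23 of 35 tested features, with 2 rising and a median of -1.76. The nuclear receptors fell furthest. NR1H4, the bile acid receptor FXR, went from 63.8, 57.3 and 42.1 CPM to 0.545, 0.376 and 0.450 CPM, which is at least 39.7-fold lower (edgeR adjusted p = 4.57e-14). NR1I2, the xenobiotic receptor PXR, was at 22.2, 19.1 and 23.5 CPM and dropped to at most 1 count per library, at least 15.7-fold lower. For CAR, NR1I3_90298 fell from 39.1 ± 11.4 to 1.24 ± 1.32 CPM (log2 -4.81, SE 0.568). HNF4A, which maintains the hepatocyte state, had 15.1, 18.5 and 39.5 CPM at C1 and 1.63, 1.5 and 0 CPM at C5 (log2 -4.52, SE 0.660). FOXA2 fell from 20.2 to 5.49 CPM (log2 -1.85). The exception among the fixed genes was CEBPA, which did not pass the test (log2 -0.02, SE 0.468). It had 12.4, 13.9 and 11.7 CPM at C1 and 3.27, 17.7 and 15.8 CPM at C5, so replicate 1 fell while replicates 2 and 3 rose. The 2 rising members were AHR, the dioxin receptor (49.1 to 109 CPM, log2 1.10), and ONECUT2 (log2 1.15), both picked for naming once their values were known.

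Plasma proteins made by hepatocytes fell almost throughout. Of 72 tested features 70 fell and none rose, with a median of -4.03 (-3.72 when features at the floor are set to their bound), and the summed level of the list went from 118600 to 11790 CPM. ALB, serum albumin, had 29600, 22600 and 20500 CPM at C1 and 1440, 1510 and 878 CPM at C5 (log2 -4.25, SE 0.153, edgeR adjusted p = 3.85e-25). The haemoglobin-binding haptoglobin gene HP went from 20800, 18600 and 16300 CPM to 1210, 1080 and 1150 CPM (log2 -4.02, SE 0.121). The 3 fibrinogen chains FGA, FGB and FGG, which form the clot, fell by 4.63, 4.18 and 4.02. In each of these genes the C5 libraries were all far below the C1 libraries, and the spread within a group was small against the gap. Coagulation factors fell to a few counts, with F9 going from 118, 67.5 and 59.6 CPM to 1.63, 1.88 and 0 CPM (log2 -6.02) and F7 and F12 at least 19.4-fold and 24.9-fold lower. Decreases were smaller for APOA1 (1760 to 294 CPM, log2 -2.58), the thyroxine carrier TTR (5697 to 1097 CPM, log2 -2.38) and the elastase inhibitor SERPINA1 (5588 to 1049 CPM, log2 -2.41). The median of the list within batches 1, 2 and 3 was -3.78, -3.52 and -3.78.

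Drug-metabolising enzymes followed. Among cytochrome P450 features 16 of 24 fell and 1 rose (median -2.95). CYP3A4, the main drug-oxidising enzyme of liver, had 907, 572 and 484 CPM at C1 and 3.81, 1.88 and 4.05 CPM at C5 (log2 -7.67, SE 0.392, edgeR adjusted p = 3.7e-20). CYP3A7, CYP3A43 and the CYP3A7-CYP3A51P probe changed by -6.46, -6.41 and -7.30, though probes of this family may share reads. CYP2E1, which oxidises ethanol, went from 219, 126 and 93.5 CPM to 5.45, 3.76 and 2.25 CPM (log2 -5.24). CYP1B1, a target of the dioxin receptor that is sparse in liver, was the rising member (5.88 ± 2.13 to 20.4 ± 6.66 CPM, log2 1.71), and no rising call was left without replicate 1 of every group or without library C1 replicate 1 or C5 replicate 1. CYP2B6, a target of CAR, fell by 2.03 in CYP2B6_14401, a call lost without replicate 1, without replicate 3 and without each of 5 single libraries. Conjugating enzymes fell in 30 of 42 features and rose in 3 (median -3.15). The steroid sulfotransferase SULT2A1 (69.2, 123 and 73.2 CPM at C1, at most 1 count per library at C5) was at least 64.4-fold lower, glycine acyltransferase GLYAT at least 99.6-fold lower and the histamine methyltransferase HNMT at least 55.8-fold lower in HNMT_27321. The rising members TPMT, NAT1 and NAT2 were picked for naming once their values were known. This list had 1 rising call without replicate 1 of every group, 0 without replicate 2 and 1 without library C1 replicate 2.

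Bile acid synthesis and transport fell in 34 of 39 features and rose in 2 (median -4.08, or -2.93 with floor features at their bound). CYP7A1, the rate-limiting enzyme of bile acid synthesis, went from 69.2, 64.1 and 36.2 CPM to 0.545, 0.376 and 0.450 CPM, at least 41.2-fold lower. The organic anion transporter SLC22A7 had 64.7, 32.1 and 26.3 CPM at C1 and no count in any C5 library in SLC22A7_90194 (at least 29.9-fold lower), and its other probe was at least 44.8-fold lower. The sterol exporter subunit ABCG8 was at least 45.2-fold lower. The rising features were both probes of ABCC4, an efflux pump of the basolateral side, with log2 changes of 0.76 and 0.65, and the rising count was 1 without replicate 1, without replicate 2, and without any single library of C1 or C5.

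Intermediary metabolism moved the same way with smaller medians. Amino acid breakdown and the urea cycle fell in 31 of 44 features (1 rising, median -1.83). Glyoxylate aminotransferase AGXT fell from 762, 662 and 568 CPM to 8.72, 9.41 and 7.20 CPM (log2 -6.28), tryptophan dioxygenase TDO2 fell by 6.24, and the first urea cycle enzyme CPS1 went from 78.9, 37.0 and 48.9 CPM to 9.81, 2.26 and 8.55 CPM (log2 -3.01). Fatty acid oxidation and ketogenesis fell in 30 of 38 features (1 rising, median -1.38), led by the peroxisomal oxidase HAO2 (log2 -7.30) and the fatty acid carrier FABP1 (535, 340 and 315 CPM to 5.45, 2.26 and 0.450 CPM, log2 -7.24). Gluconeogenesis and glycogen genes fell in 14 of 21 features (1 rising, median -1.28). Glucose-6-phosphatase, G6PC, fell by 5.69. Cholesterol synthesis fell in 19 of 29 features (2 rising, median -1.03), among them HMGCS1 (699, 701 and 739 CPM to 86.6, 94.4 and 104 CPM, log2 -2.90), FDPS (log2 -2.66), MSMO1 (log2 -2.57) and CYP51A1_92320 (log2 -2.23).

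Fatty acid and triglyceride synthesis fell in 16 of 30 features and rose in 2 (median -0.87). The lipogenic factor THRSP was at least 33.1-fold lower, MTTP, which loads lipid on apoB, at least 32.3-fold lower, and the lipid droplet protein CIDEC fell by 5.59. FABP4, the adipocyte fatty acid carrier, went against its list. It had 3.55, 4.93 and 2.29 CPM at C1 and 146, 90.3 and 126 CPM at C5 (log2 5.07, SE 0.296, edgeR adjusted p = 3.27e-18).

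**Figure D2:**
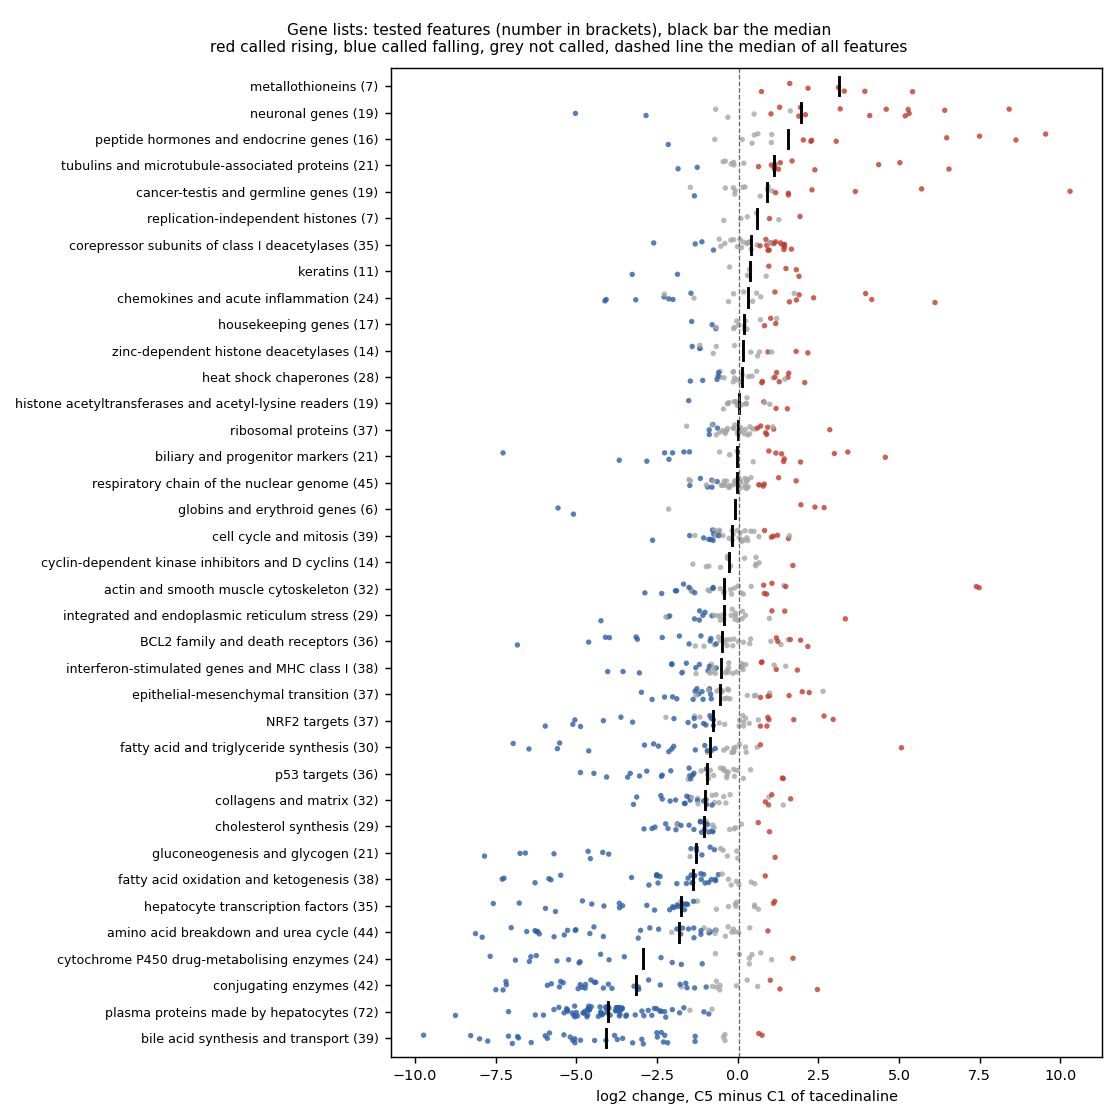
Log2 change from C1 to C5 (horizontal axis) of each tested feature in 37 gene lists (vertical axis, number of tested features in brackets), with called rising features in red, called falling features in blue and others in grey. Lists of hepatocyte functions lie at the bottom with medians down to -4.08, and metallothioneins (median 3.12) and neuronal genes (median 1.95, or 0.46 without the low-count filter) lie at the top.

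The largest individual increases belonged to genes with hardly a count at C1. PRR20G, a gene of a proline-rich family of little known function that the cancer-testis and germline list held, had 1.77, 0 and 0 CPM at C1 and 252, 229 and 621 CPM at C5, at least 253-fold higher (edgeR adjusted p = 4.31e-18). Reads of near-identical PRR20 copies may be shared with it. CGA, the common alpha subunit of the glycoprotein hormones of pituitary and placenta, had no count at C1 and 22.3, 45.5 and 36.5 CPM at C5, at least 24.0-fold higher. The vesicle protein SYT11 went from 0, 0.308 and 0 CPM to 59.4, 44.0 and 68.0 CPM, at least 39.4-fold higher. CCK, the gut and brain peptide cholecystokinin, went from 0.887, 0.617 and 0.255 CPM to 76.3, 99.7 and 112 CPM, at least 66.1-fold higher. The melatonin-related receptor GPR50, the semen protein SEMG2, the WNT inhibitor DACT3 and the neurotrophin receptor NGFR were at least 32.1-fold, 20.5-fold, 18.9-fold and 20.2-fold higher. Among features with more than a few counts at C1, carboxypeptidase CPA4 rose from 10.6, 12.6 and 7.65 CPM to 654, 619 and 764 CPM (log2 6.06, SE 0.23) and the growth factor-like IGFL1 from 6.21, 7.71 and 7.65 CPM to 402, 286 and 341 CPM (log2 5.52, SE 0.239). The stromelysin MMP10, with only 0, 0 and 6 counts at C1, rose from 0, 0 and 1.53 CPM to 66.5, 82.8 and 111 CPM (log2 6.84). Only replicate 3 of C1 held counts of MMP10, so the size of its change rests on that library. In all of these genes, picked for the size of their change, the groups did not overlap, and neither did they in 51.2% of all features tested.

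By the size of the shift in CPM, the rising features were PEG10, an imprinted retrotransposon-derived gene (1980, 2120 and 1650 CPM to 7920, 7950 and 6010 CPM), the metalloprotease inhibitor TIMP1 (1570, 1090 and 1390 CPM to 6030, 4520 and 5670 CPM), MT2A, the glycolytic enzyme PKM (840 to 2497 CPM) and BIRC3, an inhibitor of apoptosis (579 to 2232 CPM). Their log2 changes lay between 1.57 and 3.94. The largest decreases in CPM were ALB, HP, FGA, FGG and FGB. Among the largest decreases in fold, the alcohol dehydrogenase ADH4 went from 240, 219 and 164 CPM to 0.545, 1.13 and 0.450 CPM, at least 152-fold lower. The fetuin gene AHSG had 19.5, 19.1 and 21.7 CPM at C1 and no count at C5, at least 14.7-fold lower. AGXT2 was at least 61.0-fold lower.

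**Figure D3:**
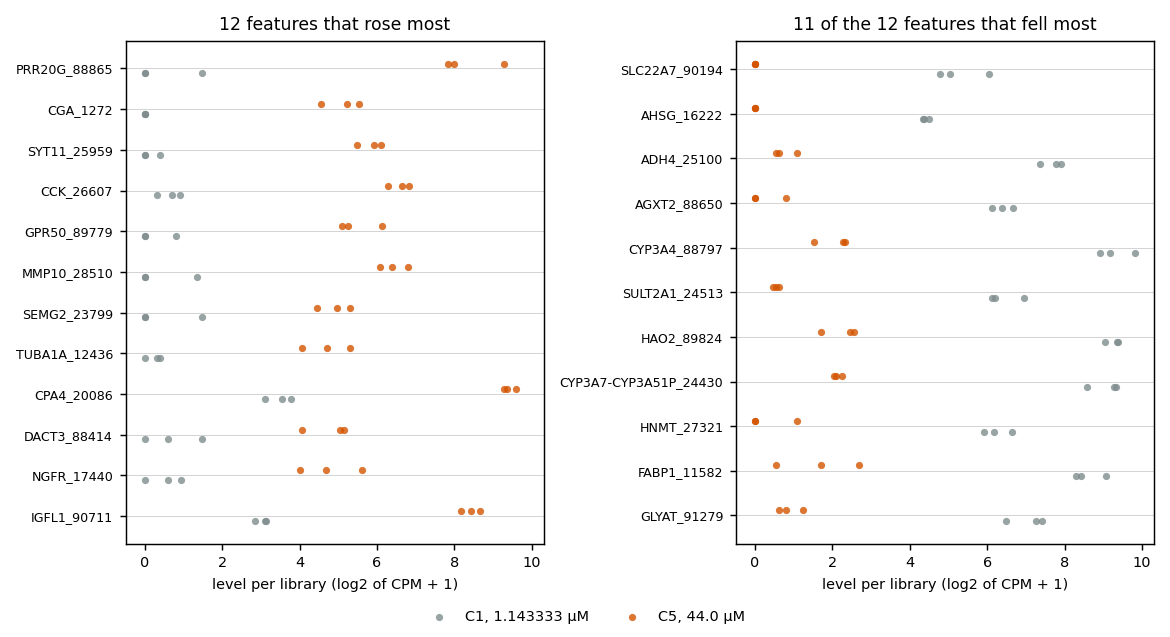
Level of each library (horizontal axis, log2 of CPM + 1) for the 12 features that rose most (left) and 11 of the 12 that fell most (right) among called features with a mean of at least 50 counts in the higher group, grey for C1 and orange for C5. The 3 grey and 3 orange points of a feature stay apart in every line, and many rising features start at 0 while many falling features end near it.

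The 250 bases before the RefSeq start site (GRCh38.p14, strand of the gene) are shown for 3 genes that rose from the floor and 3 that fell to it, since these promoters belong to the genes at the ends of the response. Capitals mark matches to the searched motifs on either strand, which describe letters only. The windows cover chr3:127288047-127288296 (PRR20G, minus strand), chr6:87095107-87095356 (CGA, minus), chr1:155859317-155859566 (SYT11, plus), chr6:43298010-43298259 (SLC22A7, plus), chr3:186612810-186613059 (AHSG, plus) and chr4:99144298-99144547 (ADH4, minus).
PRR20G: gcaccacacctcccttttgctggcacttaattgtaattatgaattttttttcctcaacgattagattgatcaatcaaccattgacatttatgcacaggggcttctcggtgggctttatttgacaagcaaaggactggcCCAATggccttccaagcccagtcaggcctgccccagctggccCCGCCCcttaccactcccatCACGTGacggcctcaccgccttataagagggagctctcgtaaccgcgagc
CGA: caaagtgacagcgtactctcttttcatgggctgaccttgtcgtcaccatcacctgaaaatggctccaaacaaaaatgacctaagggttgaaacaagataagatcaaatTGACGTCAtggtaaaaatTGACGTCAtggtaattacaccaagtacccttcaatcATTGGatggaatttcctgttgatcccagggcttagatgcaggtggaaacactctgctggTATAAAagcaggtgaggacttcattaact
SYT11: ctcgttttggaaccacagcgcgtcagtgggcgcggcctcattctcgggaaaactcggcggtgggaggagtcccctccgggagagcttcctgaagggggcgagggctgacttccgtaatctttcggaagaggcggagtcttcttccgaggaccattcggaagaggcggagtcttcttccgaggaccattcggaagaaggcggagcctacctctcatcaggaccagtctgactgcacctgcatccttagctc
SLC22A7: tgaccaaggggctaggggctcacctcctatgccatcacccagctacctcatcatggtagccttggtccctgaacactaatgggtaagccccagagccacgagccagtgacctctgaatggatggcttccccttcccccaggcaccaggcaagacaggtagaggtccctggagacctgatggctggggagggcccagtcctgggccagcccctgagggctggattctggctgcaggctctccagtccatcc
AHSG: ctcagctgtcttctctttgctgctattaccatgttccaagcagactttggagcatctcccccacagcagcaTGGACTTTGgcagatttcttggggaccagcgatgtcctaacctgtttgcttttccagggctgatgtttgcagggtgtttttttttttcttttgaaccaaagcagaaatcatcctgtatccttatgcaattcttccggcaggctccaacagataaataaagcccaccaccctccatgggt
ADH4: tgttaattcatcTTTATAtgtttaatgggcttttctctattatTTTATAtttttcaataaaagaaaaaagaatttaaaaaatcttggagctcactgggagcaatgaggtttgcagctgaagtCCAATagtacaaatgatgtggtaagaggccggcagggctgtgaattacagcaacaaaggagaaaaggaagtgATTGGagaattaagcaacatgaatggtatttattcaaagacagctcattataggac
The CGA window holds TGACGTCA, the cAMP response element, at 142 and 124 bases before the start site and TATAAA at 29 bases before it. The AHSG window holds CAAAGTCCA, a sequence bound by HNF4, on the minus strand 179 bases before the start site. ADH4 holds TATAAA on the minus strand at 238 and 207 bases and CCAAT matches at 128 and 56 bases, while SYT11 and SLC22A7 hold none of the 8 motifs. The G plus C share is 60.0% in SYT11 and 62.0% in SLC22A7, but the observed over expected ratio of CpG is 0.848 and 0.0418.

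Neuronal genes, among them SYT11, were mostly too low to test. Of 59 symbols with 74 features, 34 features stayed at the floor in both groups and 19 were tested, of which 13 rose and 2 fell (median 1.95, or 1.89 with floor features at their bound). Without the low-count filter the median was 0.46. Several of the 19, such as SYT11, passed the filter only through the higher concentrations, where they were high, so the count and median do not describe the whole list. The falling calls were 0 without replicate 2 or replicate 3 of every group and without library C1 replicate 3. The secretogranin SCG2 went from 2.66, 2.77 and 0.510 CPM to 84.5, 60.9 and 67.5 CPM (log2 5.31), the synaptic fusion protein STX1A from 1.77, 1.85 and 1.53 CPM to 71.9, 72.2 and 46.8 CPM (log2 5.19), and the neurofilament NEFL from 0, 0 and 1.27 CPM to 20.7, 36.1 and 15.3 CPM (log2 5.28). Peptide hormones and endocrine genes gave 8 rising and 1 falling of 16 tested features, with 26 of 53 features at the floor in both groups, and members such as CGA and CCK likewise passed the filter only through the higher concentrations. The falling member was INHBB, an activin subunit (34.5 to 7.85 CPM, log2 -2.15). In the cancer-testis and germline list 7 of 19 tested features rose and 1 fell (median 0.92), with 24 of 57 at the floor in both groups and PRR20G passing only through the higher concentrations. SPANXB1 rose from 54.1, 60.4 and 56.6 CPM to 140, 201 and 169 CPM (log2 1.57) and ACTL8 fell from 123 to 48.2 CPM (log2 -1.34). Without replicate 3 of every group the rising calls numbered 3. Of 40 HOX features only 2 were tested and neither passed, HOXA2 at log2 0.55 (edgeR adjusted p = 0.559) and HOXB9 at log2 -1.12 (edgeR adjusted p = 0.0766). HOXB9 passed without library C5 replicate 1 and in the fit of C1 and C5 alone with the replicate block. Of 30 globin and erythroid features 19 stayed at the floor in both groups and 6 were tested, of which 3 rose and 2 fell. The median of this list was -0.09 and lay between -1.11 and 2.10 over all settings. Cytoglobin CYGB, an oxygen carrier of stellate cells and fibroblasts, dropped from 108, 108 and 135 CPM to 4.9, 0.752 and 2.25 CPM (log2 -5.57). Spectrin SPTB rose from 11.2 to 43.8 CPM (log2 1.96).

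Every tested feature of the metallothionein list rose, 7 of 7, with a median of 3.12, while 5 of its 15 features were at the floor in both groups. MT1A and MT1X, low at C1, passed the filter only through the higher concentrations, so the count and median do not describe the whole list. Metallothioneins are small proteins that bind zinc and copper. MT2A had 135, 95.6 and 161 CPM at C1 and 2010, 2000 and 2000 CPM at C5 (log2 3.94, SE 0.177, edgeR adjusted p = 5.69e-22). MT1M went from 23.9, 15.4 and 35.4 CPM to 194, 215 and 254 CPM (log2 3.12), MT1A from 0, 2.47 and 0.765 CPM to 63.2, 51.5 and 58.5 CPM (log2 5.42) and MT1X from 2.2 to 27.5 CPM (log2 3.30). Members of this family are near-identical and probes may share reads. The list also held the metal-sensing factor MTF1 (log2 1.61) and the zinc exporter SLC30A1 (294 ± 32.3 to 488 ± 29.3 CPM, log2 0.74), which are not metallothioneins.

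Cell cycle genes did not move together. Of 39 tested features 10 fell, 5 rose and 24 were not called (median -0.17), and the 38.5% called is near the 38.8% of all features. TYMS, thymidylate synthase, had 659, 713 and 791 CPM at C1 and 101, 112 and 134 CPM at C5 (log2 -2.64, SE 0.156, edgeR adjusted p = 4.8e-18), the largest change of the list. The mitotic kinesin KIF20A fell from 28.4, 38.5 and 54.3 CPM to 7.63, 17.7 and 18 CPM (log2 -1.49). The proliferation markers TOP2A (91.8 to 51.7 CPM, log2 -0.83) and MKI67 (184, 226 and 256 CPM to 111, 151 and 184 CPM, log2 -0.59, edgeR adjusted p = 0.00622) fell less, MKI67 with groups that were barely apart. The MKI67 call was lost without replicate 1, without replicate 2, without library C1 replicate 3 or C5 replicate 1, and under upper quartile scaling, thinning to equal depth, a filter of at least 50 counts in 3 libraries and glmTreat. The DNA replication factors CDC6 (24.8, 26.8 and 21.2 CPM to 49.0, 61.3 and 105 CPM, log2 1.57) and GINS2 (20.7 to 52.0 CPM, log2 1.24) rose. Without replicate 3 of every group the rising calls of the list numbered 3. Of 14 features of cyclin-dependent kinase inhibitors and D cyclins 1 was called, CCND3 (4.43, 14.5 and 13.0 CPM to 30.0, 34.2 and 48.6 CPM, log2 1.71), and without replicate 3 of every group 4 rose. CDKN1A, the p21 inhibitor, had means of 0.501 and 0.908 CPM and was not tested. CCND1 was at 6.55 CPM in C1 and 2.41 CPM in C5 (log2 -1.39, SE 0.777, edgeR adjusted p = 0.149).

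Genes known as p53 targets fell in 16 of 36 tested features and rose in 2 (median -0.95). MDM2, the ubiquitin ligase of p53, fell in 3 probes. In MDM2_23384 the levels were 5480, 5840 and 5790 CPM at C1 and 699, 678 and 698 CPM at C5 (log2 -3.04, SE 0.112), and the other 2 probes fell by 2.82 and 4.06. TP53INP1 fell from 82.5 to 16.3 CPM (log2 -2.37) and the death receptor FAS from 155, 184 and 194 CPM to 36.5, 39.9 and 29.3 CPM (log2 -2.34). Both rising features were probes of GDF15, a stress cytokine that other pathways also control (102, 155 and 155 CPM to 374, 324 and 416 CPM in GDF15_18329, log2 1.41). In the list of the BCL2 family and death receptors 13 of 36 features fell and 5 rose (median -0.48). The death ligand TRAIL (TNFSF10_7255) fell from 44.3, 47.5 and 32.4 CPM to 1.63, 2.26 and 0.900 CPM (log2 -4.62) and the caspase-8 inhibitor CFLAR by 4.10 and 3.98 in 2 probes. The rising features were BIRC3 (591, 631 and 513 CPM to 2220, 2240 and 2240 CPM, log2 1.95), the BH3-only killers BMF (log2 2.17) and BCL2L11 (log2 1.63 and 1.24 in 2 probes), and caspase CASP9 (log2 1.20), of which all but BIRC3 were singled out once their values were known.

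In the integrated and endoplasmic reticulum stress list 9 of 29 features fell and 3 rose, a share called of 41.4% that is near the 38.8% of all features, with the pseudokinase TRIB3 falling from 282, 249 and 259 CPM to 74.7, 53.8 and 48.2 CPM (log2 -2.17), XBP1 falling from 17.4 to 0.907 CPM (log2 -4.24) and the serine synthesis enzyme PSAT1 rising from 17.0 to 46.5 CPM (log2 1.46). Among heat shock chaperones 8 of 28 rose and 5 fell (46.4% called, against 38.8% of all features). HSPA2 went from 8.87, 10.5 and 7.39 CPM to 38.1, 36.1 and 38.7 CPM (log2 2.08), HSPA1B from 26.6, 34.2 and 37.7 CPM to 108, 103 and 90.5 CPM (log2 1.58), and HSPB8 fell from 249 to 90.0 CPM (log2 -1.47). HSPA1A, whose sequence is almost that of HSPA1B, was at 9.49 and 22.3 CPM (log2 1.10, edgeR adjusted p = 0.0564, and past the threshold with the replicate block). Without library C1 replicate 3 there were 5 rising and 3 falling chaperone calls, without library C5 replicate 3 the falling calls were 3, and without replicates 2 and 3 of every group they were 3 and 2. NRF2 targets fell in 17 of 37 features and rose in 7 (median -0.75). The falling members were led by the hepatic efflux pumps ABCC2 (220, 263 and 164 CPM to 9.26, 4.89 and 5.85 CPM, log2 -5.05) and ABCC3 (log2 -4.87 in ABCC3_26788), while the peroxide-reducing PRDX1 (137 ± 34.6 to 1051 ± 144 CPM, log2 2.96) and SRXN1 (156 ± 17.9 to 1001 ± 72.6 CPM, log2 2.67) rose and were singled out once their values were known.

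Cytoskeleton genes parted by type. Of 42 tubulin and microtubule-associated features 9 were at the floor in both groups and 21 were tested. Of those tested 12 rose and 2 fell (median 1.14), while the summed level of the list went from 1696 CPM at C1 to 1538 CPM at C5. TUBA1A_12436 passed the filter only through the higher concentrations, so the count and median do not describe the whole list. The neuronal alpha-tubulin TUBA1A went from 0, 0.308 and 0.255 CPM to 15.8, 38.4 and 25.2 CPM in TUBA1A_12436 (at least 18.2-fold higher) and from 4.75 to 23.3 CPM in its other probe (log2 2.39). The widespread TUBA1B fell from 121, 115 and 160 CPM to 36.5, 34.6 and 39.2 CPM (log2 -1.85), although alpha-tubulin probes may share reads. The neuronal tau gene MAPT rose from 26.6, 29.0 and 30.3 CPM to 71.4, 66.2 and 79.2 CPM (log2 1.32), and TUBB3 was too low to test. In the actin and smooth muscle list 10 of 32 features fell and 7 rose, with gelsolin GSN at 393, 427 and 475 CPM in C1 and 94.3, 71.5 and 88.7 CPM in C5 (log2 -2.36) and ACTA2 at 29.9 and 8.11 CPM (log2 -1.93).

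Collagen and matrix features fell in 16 of 32 and rose in 4 (median -1.02). COL18A1 fell from 301, 264 and 189 CPM to 61.0, 53.4 and 60.8 CPM (log2 -2.10), and the stromal proteins COL27A1, POSTN and COL7A1 fell by 3.13, 2.34 and 1.65. The rising calls were 2 without replicate 2, without replicate 3, and without library C1 replicate 2 or C1 replicate 3. Features of epithelial-mesenchymal transition fell in 15 of 37 and rose in 6 (median -0.55). The list holds TIMP1, named above for its rise in CPM, and its summed level went from 9955 CPM at C1 to 13480 CPM at C5. The membrane protease MMP14 fell from 654, 737 and 710 CPM to 105, 67.0 and 95.9 CPM (log2 -2.98), SPARC fell by 2.65, and the epithelial cadherin CDH1 fell from 32.8, 30.8 and 31.1 CPM to 2.18, 11.7 and 8.55 CPM (log2 -2.02). VIM was too low to test. Keratins rose in 4 and fell in 2 of 11 features. The biliary keratin KRT19 gave log2 0.96 in KRT19_3690 (edgeR adjusted p = 0.0208, lost without replicate 1 and without replicate 2) and -0.25 in KRT19_10816 (edgeR adjusted p = 0.48), so its probes did not give a common direction. KRT6A fell from 87.8 to 24.3 CPM (log2 -1.87), and the epithelial keratins KRT14 and KRT80 rose by 1.90 and 1.82. The biliary and progenitor list gave 9 rising and 8 falling of 21 features, 5 rising without replicate 1 and 5 falling without replicate 2. SOX9, a factor of bile duct and progenitor cells, rose from 12.4, 20.7 and 19.6 CPM to 55.6, 39.1 and 46.4 CPM (log2 1.36) and NCAM1 from 64.7, 41.3 and 43.3 CPM to 173, 205 and 178 CPM (log2 1.95), while ANXA4 and BICC1 fell by 2.13 and 1.67. Osteopontin, SPP1, rose by 1.18 (log2, edgeR adjusted p = 0.0257), a call lost without replicate 1 and without replicate 2.

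In the list of chemokines and acute inflammation 8 of 24 features rose and 7 fell. Lipocalin LCN2, an iron-scavenging acute-phase protein, went from 54.1, 31.8 and 27.8 CPM to 554, 565 and 536 CPM (log2 3.96, SE 0.212), and the chemokine CCL20 from 11.5, 6.47 and 8.16 CPM to 157, 136 and 145 CPM (log2 4.15, SE 0.270). CCL15 and the neutrophil attractant CXCL2 fell by 4.12 and 4.08. Without library C5 replicate 2 there were 5 rising calls, and without replicate 2 of every group 4. Interferon-stimulated and MHC class I genes fell in 12 of 38 features and rose in 4 (median -0.52), and the 42.1% called is near the 38.8% of all features. The immunoproteasome subunit PSMB8 fell from 145, 152 and 212 CPM to 49.0, 36.9 and 39.2 CPM (log2 -2.04), the peptide-loading factor TAPBP by 2.04 and IFIT5 by 1.73, and OASL rose by 1.85.

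Genes used by all cells had small list medians, with calls in both directions. Respiratory chain features rose in 5 and fell in 6 of 45 (24.4% called, median -0.03). Ribosomal protein features rose in 7 and fell in 4 of 37 (29.7% called, median 0.02, with 4 rising calls without replicate 2). Among 17 housekeeping features 3 rose and 3 fell (median 0.21), and the 35.3% called is near the 38.8% of all features. Beta-actin, ACTB, often taken as a reference gene, was not stable, with 356, 248 and 439 CPM at C1 and 114, 130 and 143 CPM at C5 (log2 -1.43, SE 0.169, edgeR adjusted p = 3.5e-09).

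The 3 concentrations in between placed these changes. Each was compared with the same C1 libraries, so the comparisons share them. At C2 (3.43 µM) 48 features were called (0.385%), 37 rising (0.297%) and 11 falling (0.0883%), and the calls numbered 26, 9 and 27 without replicates 1, 2 and 3 of every group and 78 without the low-count filter. At C3 (10.29 µM) 1483 were called (11.9%), 678 rising (5.44%) and 805 falling (6.46%), and at C4 (30.87 µM) 4081 (32.8%), 2034 rising (16.3%) and 2047 falling (16.4%), against 4840 at C5. The share of CPM in features that fell at C5 was 39.2% to 39.9% in the C2 libraries, 26.7% to 27.8% at C3 and 16.2% to 17.1% at C4. ALB was at 23470 CPM at C2, 5163 CPM at C3 and 1429 CPM at C4, close to the 1277 CPM of C5. CYP3A4_88797 was at 305, 121 and 7.95 CPM at C2, C3 and C4. CYP7A1 was at 19.2, 4.17 and 0.651 CPM. HNF4A stayed at 17.5 CPM at C2 and 12.6 CPM at C3 and was at 1.84 CPM at C4. HDAC6_90749 was already at 267 CPM at C3, close to its level at C5, whereas HDAC3 was at 78.9 CPM at C3 and 223 CPM at C4. MT2A was at 117, 416 and 1317 CPM at C2, C3 and C4, and PRR20G at 0.0803, 9.06 and 166 CPM. CPA4, MMP10 and CGA had means of 848, 172 and 47.1 CPM at C4, above their means at C5 of 679, 86.7 and 34.8 CPM. The step from C4 to C5 was not tested here.

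**Figure D4:**
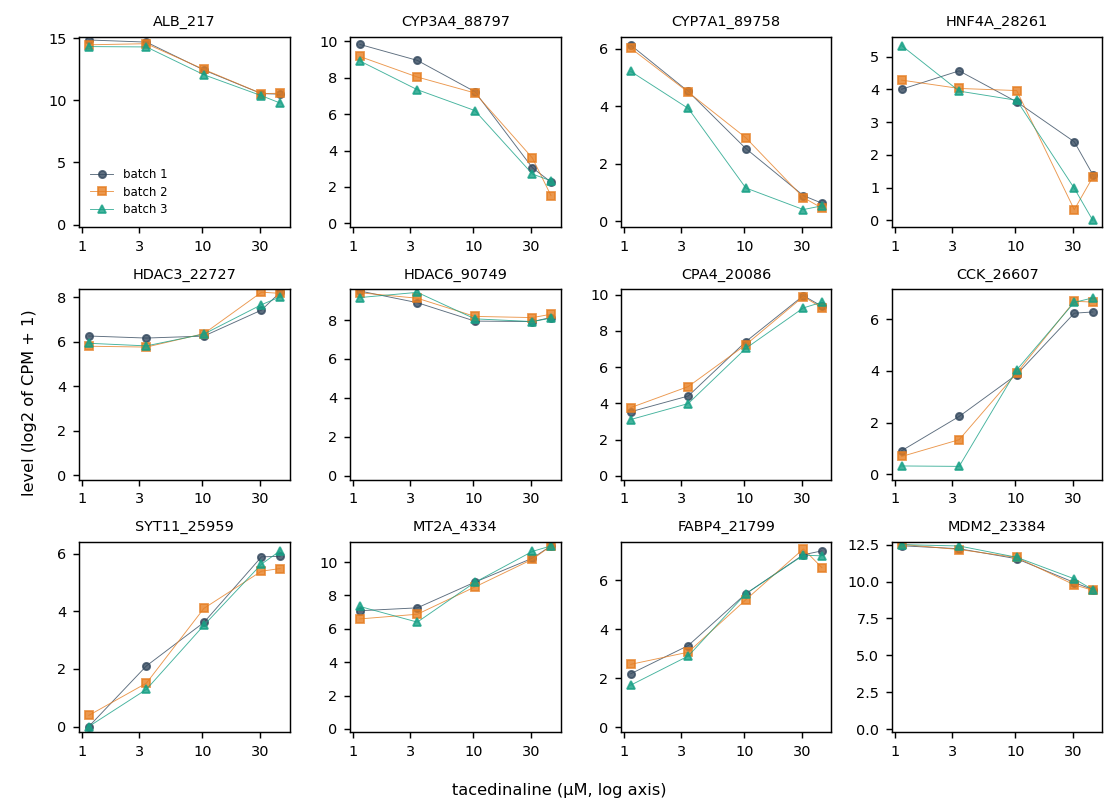
Level (log2 of CPM + 1) of 12 features in each of the 15 tacedinaline libraries against concentration (µM, log axis), with a line and symbol for each of the 3 HepaRG batches. ALB, CYP3A4 and CYP7A1 fall and CPA4, CCK and SYT11 rise mainly between 3.43 and 30.87 µM in all 3 batches, while HNF4A and HDAC3 change mainly from 10.29 to 30.87 µM.

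The change from C1 to C5 was set beside those of 2 other inhibitors by testing the difference of the changes in a fit of 45 libraries, with 14127 features tested. The concentrations were not matched between chemicals. Mocetinostat (0.177222 to 3.9 µM) is, like tacedinaline, a benzamide of the ortho-aminoanilide type, and was on plate H, so plate and chemical cannot be told apart. Vorinostat (0.404778 to 23.5 µM) is a hydroxamic acid and was on plate E. In this fit 4389 features (31.1%) were called for tacedinaline, 5088 (36.0%) for mocetinostat and 5309 (37.6%) for vorinostat. Against mocetinostat, 7 features differed (0.0496%), and 1063 had an unadjusted p under 0.05. All 7 changed more upward or less downward in tacedinaline. The calprotectin subunit S100A8 went from 137 to 684 CPM with tacedinaline and from 331 to 442 CPM with mocetinostat (difference 1.90, SE 0.259, edgeR adjusted p = 5.71e-05), and the repressor BCL6 from 117 to 354 CPM and from 185 to 188 CPM (difference 1.57, SE 0.241). PLIN2, a lipid droplet protein, fell from 66.7 to 33.6 CPM with tacedinaline and from 319 to 31.2 CPM with mocetinostat (difference 2.37), a contrast in which the C1 levels and not the C5 levels differed. The steroid reductases AKR1C4 and AKR1C1, the adhesion protein CLMP and the factor KLF9 differed by 1.84, 1.47, 3.24 and 1.41. The calls numbered 0 without replicate 1 of every group, 1 without replicate 2 and 11 without replicate 3.

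Against vorinostat 263 features differed (1.86%), 204 with a more upward and 59 with a more downward change in tacedinaline. In 23 of 44 tested features of the cell cycle list tacedinaline had the higher change and in none the lower, and the list medians were -0.25 for tacedinaline, -0.27 for mocetinostat and -2.59 for vorinostat. The salvage kinase TK1 went from 11.3 to 25.2 CPM with tacedinaline (5.97 to 14.4 CPM in the C1 libraries, 20.9 to 30.2 CPM at C5) and from 9.13 CPM to no count in any library with vorinostat. POLE2, a DNA polymerase subunit, went from 18 to 9.04 CPM and from 17.0 CPM to no count, and the kinetochore protein SKA3 from 14.1 to 12.4 CPM and from 17.4 to 0.971 CPM (difference 4.08, SE 0.940, edgeR adjusted p = 0.0106). The vorinostat C5 libraries had fewer counts (1061359 to 1879287) than those of tacedinaline C5 (1739105 to 2523787), and with all 45 libraries thinned to 1061359 counts 21 cell cycle features were called. Without replicates 1, 2 and 3 of every group 14, 4 and 20 were called, and of all features 111, 22 and 155. Ribosomal protein features had a median of 0.85 with vorinostat and -0.01 with tacedinaline, with 2 of 37 differing. In the other direction, in which 0.418% of all features differed against 1.44% upward, the retinol-binding RBP5 fell from 72.6 to 4.46 CPM with tacedinaline and from 27.3 to 13.4 CPM with vorinostat (difference -2.99, SE 0.510), and the lysosomal LAPTM5 fell from 21.5 to 11.5 CPM and rose from 8.31 to 48.7 CPM (difference -3.48). In the plasma protein list 3 of 73 features differed from vorinostat and none from mocetinostat, and in the metallothionein list none of 8 differed from either. Not passing this test does not show that the chemicals acted alike.

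**Figure D5:**
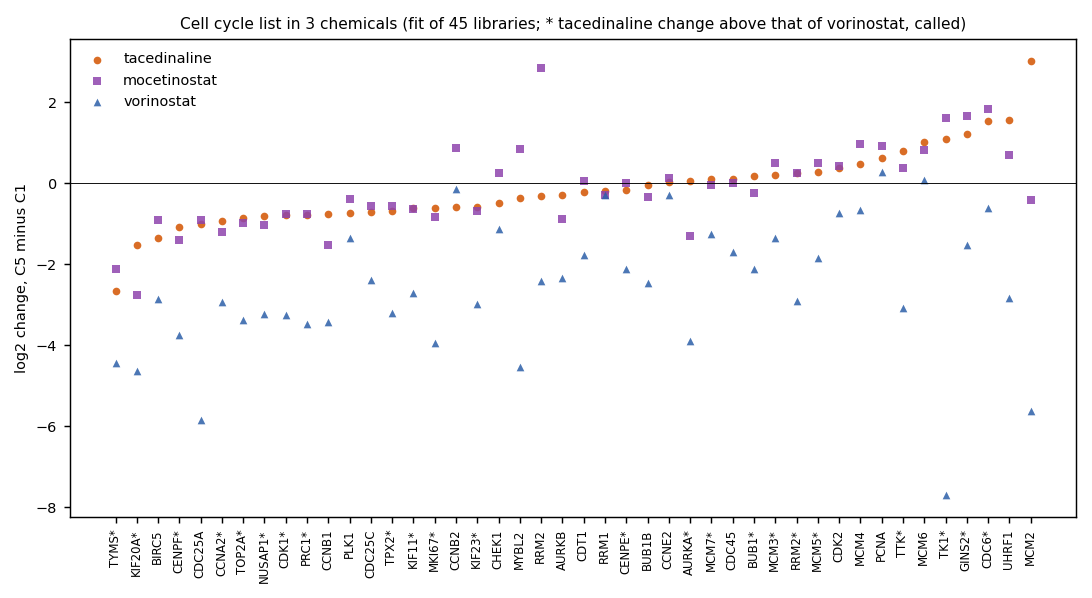
Log2 change from C1 to C5 (vertical axis) of the cell cycle features tested in 45 libraries (horizontal axis, ordered by tacedinaline) for tacedinaline (orange circles), mocetinostat (purple squares) and vorinostat (blue triangles). Blue triangles lie below the orange circles for most features, with list medians of -2.59 and -0.25, and stars mark the 23 called differences.

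Several probes of a gene gave a check within the data. Of 1035 symbols with several tested features, 276 had at least 2 called in a common direction and 3 had probes called in opposite directions. For LMO7, a scaffold protein of cell junctions, LMO7_27443 fell from 99.9 ± 3.80 to 20.3 ± 5.41 CPM (log2 -2.30) and LMO7_21338 rose from 0.890 ± 0.892 to 6.92 ± 4.28 CPM (log2 2.86). For DLC1, a regulator of small GTPases, DLC1_27115 rose from 37.8 ± 7.58 to 140 ± 20.2 CPM (log2 1.92) and DLC1_24699 fell from 12.3 ± 3.77 to 1.68 ± 1.59 CPM (log2 -2.81). For POLR2H, an RNA polymerase subunit, the changes were 0.92 and -0.66. The transcripts that each probe detects were not resolved here.

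Promoter composition was described over the genes with a RefSeq window of 250 bases before the start site, which 82.1% of tested symbols had (81.3% of rising, 80.3% of falling and 83.0% of those not called). The median G plus C share was 65.2% in rising, 62.8% in falling and 64.4% in genes not called. The median CpG ratio was 0.830, 0.730 and 0.832. GGGCGG, the GC box, was found in 69.6% of rising and 57.7% of falling genes, against 65.2% of all tested genes and 42.3% of all promoters of the RefSeq table. TATAAA was found in 7.05% of rising, 8.89% of falling and 4.80% of genes not called (11.1% of all promoters). CCAAT was found in 39.6% and 31.1% of rising and falling genes (33.0% of all promoters). CAAAGTCCA was found in 12 of 1867 falling genes (0.643%), in 3 of 1787 rising genes (0.168%) and in 0.293% of all promoters. TGACGTCA was found in 3.36% of rising, 1.29% of falling and 1.77% of all promoters, TGACTCA in 2.29%, 3.11% and 4.16%, and CACGTG in 8.23%, 7.98% and 6.49%. Both strands were searched, and none of the 8 motifs contains another. Classes of more strongly changed genes had windows for fewer than 80% of their symbols, so the same description is void there. No test was made on these shares.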

How the data were processed

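HepaRG cells exposed to a histone deacetylase inhibitor were measured by TempO-Seq in 118 libraries, 15 of them with tacedinaline (3 per concentration). The authors deposited raw counts per probe. The submitters' processing notes name bcl2fastq 2.20.422, fastp 0.23.2, STAR 2.7.10b and DESeq2 1.38.0, and the genome build of the alignment is not given in the sources used here. Of 22069 features 1 with 88 missing values was left out. Names were checked against RefSeq of GRCh38.p14 (21348 matched by symbol, 595 by synonym and 125 not), which also gave the promoter sequences.

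The 15 tacedinaline libraries were fitted in 1 model with a term per concentration, using R 4.3.3, edgeR 4.0.16 (filterByExpr, TMM, quasi-likelihood test), limma 3.58.1 and Benjamini-Hochberg adjustment. All tacedinaline concentrations shared the spread estimate (biological coefficient of variation 22.1%). The standard error (SE) was derived from each log2 change and its F statistic. The contrasts between chemicals used 45 libraries. DESeq2 1.42.0 was an alternative. Tables and figures used Python 3.11.15, pandas 2.3.3, scipy 1.17.1 and matplotlib 3.10.9. The replicates came from separate cell batches of 1 line. The labels give replicate numbers to cell batches, so samples pair by number, and the correlation of deviations from the group means had a median of 0.0162 over 30 pairs of a shared batch and -0.00529 over 60 other pairs. A group whose libraries all had at most 3 counts was taken as at the floor, and its fold was computed against the CPM of 3 counts, averaged over the libraries of that group, a bound that covers counting error only.

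The comparison, gene lists and tests were chosen with earlier results of these data known. Named genes were the 12 rising and 12 falling features with the largest change of 1 sign in all batches and a mean of at least 50 counts in the higher group, the 5 with the largest shift in CPM each way, up to 4 called features of each list, a fixed set of genes, the 4 largest differences each way between chemicals, and symbols with oppositely called probes. Further members were named after their values were seen, namely those so marked in the text and HDAC9, MTA1, MTA2, MTA3, CYP1B1, ABCC4, MTF1 and SLC30A1. The same fit was tested on simulated counts of 11998 features. At C5, 50 features above a low-count limit were changed by each fold, and all others were left unchanged. The fit recovered 72% of 2-fold increases but 48% of 2-fold decreases, and 98% and 96% of 4-fold increases and decreases, with 8 false calls. In the data 38.8% of features were called, so these rates belong to the simulated setting and may not hold for this comparison. Alternatives were other scalings, filters, DESeq2, a test against the fold limit (glmTreat), the replicate block, thinning, and leaving out replicates and libraries. Some members and 1 searched motif are not reported here.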

Additional observations from a re-analysis of the deposited data

Results flagged for a closer look

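The change from C1 to C5 differed between chemicals by a test of the difference itself in 7 features against mocetinostat and 263 against vorinostat. Against mocetinostat the differences of log2 changes were 3.24 for CLMP (edgeR adjusted p = 0.00721), whose mocetinostat C5 libraries were at the floor, 2.37 for PLIN2, 1.90 for S100A8, 1.84 for AKR1C4, 1.57 for BCL6, 1.47 for AKR1C1 and 1.41 for KLF9. Without replicate 1 of every group none of these was called, without replicate 2 only S100A8 was, and without replicate 3 CLMP and KLF9 were not. Plate differed with the chemical and cannot be told apart from it.

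Against vorinostat, on a shared plate, the differences were 8.79 for TK1, 7.66 for POLE2, 5.39 for TOR1A and 4.08 for SKA3, each with vorinostat C5 libraries at the floor, so that the fitted sizes depend on the prior count. They were -2.99 for RBP5, -3.38 for PALMD, -3.48 for LAPTM5 and -3.76 for MORN5. The tacedinaline C5 libraries of PALMD were at the floor, so its size depends on the prior count too. Neither PALMD nor MORN5 was called when any 1 replicate of every group was left out. SKA3 was not called without replicate 1 or replicate 2, and POLE2, TOR1A and LAPTM5 were not called without replicate 2. TK1 and RBP5 kept an edgeR adjusted p below 0.05 in each case. MORN5, a protein of ciliated and germ cells, went from 1.94 to 24.9 CPM with tacedinaline and from 0.0852 to 31.2 CPM with vorinostat. Its vorinostat C1 libraries had at most 1 count and were at the floor, so the size of its difference also depends on the prior count. The concentrations were not matched, and their part in these differences was not tested.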

How the results depend on the processing

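No feature called at C5 against C1 was called in the opposite direction under any alternative, and 3128 (glmTreat) to 4840 of them were kept. Requiring the fold limit within the test (glmTreat) left 3128 calls, 1364 of them rising. Leaving out a replicate or library gave 3858 to 4747 calls at C5, 923 to 1188 at C3 and 9 to 27 at C2, and no low-count filter gave 78 at C2. With the replicate block, which pairs libraries of a batch, the calls were 4833 at C5 (2314 rising, 2519 falling), 4064 at C4, 1494 at C3 and 62 at C2. Upper quartile scaling moved the rising share of calls from 48.2% to 52.4%. Against mocetinostat DESeq2 gave 26 calls (18 upward, 8 downward), no low-count filter 44 (18 upward, 26 downward), a fit of all 118 libraries and the thinned libraries 1 downward each, and leaving out a replicate 0 to 11 (0 to 8 upward, 0 to 3 downward). Against vorinostat DESeq2 gave 98 downward calls and leaving out a replicate 22 to 155 (20 to 126 upward, 2 to 29 downward). Of 183 named features tested, 169 kept their direction and side of the threshold under every alternative and 14 did not. Of 38 list medians 27 kept their sign and 11, with medians between -0.28 and 0.32, did not. List counts of 4 or fewer that moved did so by 1 to 3. The causes of these shifts were not tested. At the lowest totals, features under about 3 counts per library have no measured fold.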
